A study of Drosophila melanogaster x Drosophila simulans with 3 samples.

Results

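The regions described here are 611 abundant exonic regions whose alleles from the parental species gave nearly equal read numbers in heads of hybrid fruit flies. They were chosen from 60040 regions by a mean of 1000 or more allele-assigned reads per library and a D. melanogaster share of those reads between 47% and 53% in each of 3 libraries. They made up 22.6% of the 2699 regions with 1000 or more reads. The other 2088 regions of that depth are the set they are compared with.

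The 3 libraries were independent replicates of 1 group, F1 females of a cross between Berlin mothers (D. melanogaster) and C167.4 fathers (D. simulans). The flies were reared at 25 °C, collected as virgins and frozen at an age of 1 to 1.5 days, and each replicate pooled heads of 200 flies from 2 bottles (per the labels' protocols). Polyadenylated RNA was read as 54 bp paired ends, with 1 lane per replicate. There was no second genotype or treatment, and values were compared between the 2 alleles of a library or between sets of regions. All D. melanogaster alleles came from mothers, so species and parent of origin cannot be told apart.

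In a hybrid nucleus both alleles meet the same transcription factors and RNA-binding proteins. Unequal expression of the alleles is therefore usually ascribed to differences in the DNA of the alleles themselves, in promoters, enhancers or transcript sequence, or to the parent of origin. An allelic read count also depends on how many positions differ between the species and on whether each reference can place the reads. Region identifiers are not paired with genes in the tables analysed here, so regions are given by identifier, length and identity between the species. In this naming of exonic regions, F marks a region joined from overlapping exons and S a single exon.

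The libraries held 26406916, 26601075 and 29004108 reads in replicates 1, 2 and 3, and 18304480, 18157586 and 20364709 of these were assigned to an allele. The balanced regions held 17.3%, 18.1% and 18.4% of the assigned reads. Exact matches made up 63.8%, 31.3% and 57.8% of assigned reads, so replicate 2 stood apart in match quality. Over all assigned reads the D. melanogaster share was 54.2%, 54.1% and 53.5%, and in the median tested region it was 51.7%, 51.7% and 51.5%. A share of 50% therefore lay slightly to the D. simulans side of the typical region.

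The share of reads from each allele chose these regions, so it is given as a description. Summed over the 611 regions, D. melanogaster alleles gave 1575268 of 3160984 reads in replicate 1 (49.8%), 1645980 of 3293803 in replicate 2 (49.97%) and 1876969 of 3748521 in replicate 3 (50.1%). The other 2088 regions gave summed D. melanogaster shares of 56.9%, 56.9% and 55.8%. The quartiles of the single balanced regions were 49.0% and 51.3% in replicate 1, 48.7% and 51.3% in replicate 2, and 49.0% and 51.3% in replicate 3. Mean shares ran from 47.2% to 52.6%, and 342 regions had a mean within 1 percentage point of 50%. All 3 libraries lay within 1 point of 50% in 49 regions, and within 2 points in 298. The alleles changed sides between libraries, or met at exactly 50%, in 327 regions. In 151 regions every library leaned to D. melanogaster, and in 133 every library leaned to D. simulans.

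**Figure D1:**
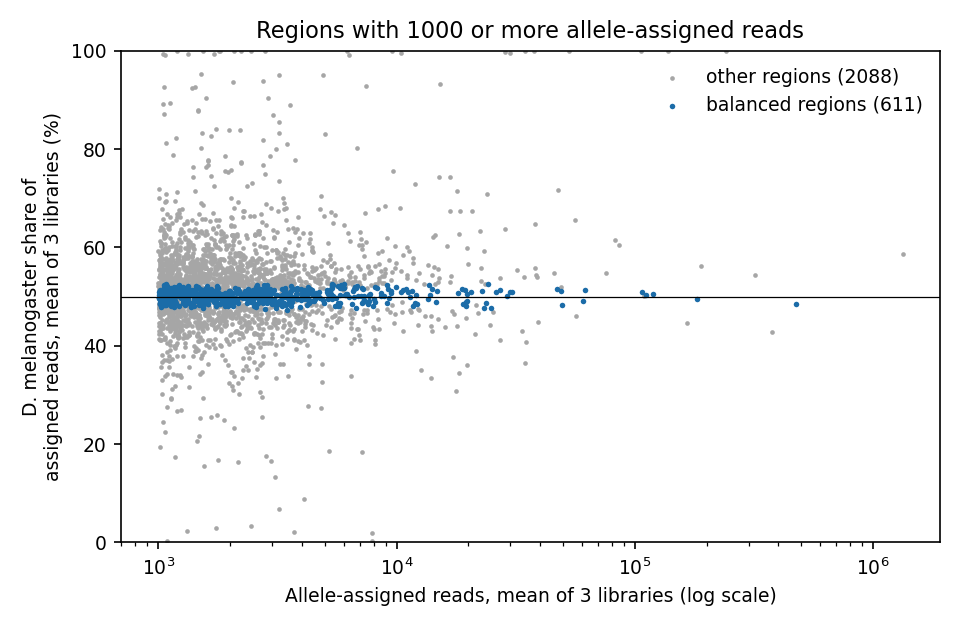
Each point is 1 of the 2699 regions with 1000 or more allele-assigned reads, by its mean assigned reads per library (log scale) and its mean D. melanogaster share (percent). The 611 balanced regions (blue) form a band around 50% up to 474624 reads, among 2088 other regions (grey), some of which lie near the ends of the share axis.

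The share varied between libraries by an SD of 0.976 percentage points in the median balanced region, with quartiles of 0.603 and 1.43 (n = 3 libraries). At the lowest depth admitted, 500 of 1000 reads has a 95% Wilson interval of 46.9% to 53.1%, which is as wide as the limits themselves. A region near the read limit could thus fall inside or outside by counting error alone. The spread between libraries was 0.942 times its binomial expectation in the median balanced region and 2.04 times in the median of the other regions, but the rule caps this spread. Of the 2699 regions, 1232 lay inside the limits in no library, 381 in 1 library, 475 in 2 and 611 in all 3. The mean share lay between 47% and 53% in 495 regions that failed in at least 1 library. Just inside the limits, S52782_SI reached 52.996% in replicate 2, and just outside, S26522_SI had 53.001% in replicate 1. By depth, the shallowest balanced region had a mean of 1001.67 assigned reads, and the deepest one left out for its depth had 994.

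With edgeR's quasi-likelihood test, 36 of the 611 regions (5.89%) were called for allelic imbalance at an adjusted p under 0.05, 22 toward D. melanogaster and 14 toward D. simulans. Over all 33303 regions with a mean of 20 or more assigned reads, 35.6% were called, 23.4% toward D. melanogaster and 12.2% toward D. simulans. The rule used this contrast, so calls among the 611 describe the fit and nothing is read from them or from their difference to the other regions. The called regions had a median of 6692.5 assigned reads per library against 1969 in those not called. Their absolute log2 ratios had a median of 0.13 and reached 0.16. Over the 611 regions the median absolute log2 ratio was 0.05, with a median standard error of 0.06. TMM scaling moved the median region of all those tested by -0.09 and the calls among the 611 to 147, all toward D. simulans. Without the replicate block 0 were called, also at an unadjusted p under 0.05 in edgeR, and DESeq2 called 4. Without replicate 1, 2 or 3 the count was 11, 20 and 16. Of all calls, 65.8% were toward D. melanogaster without scaling and 53.2% with TMM.

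Balanced alleles were found among the most heavily read regions of the heads. Of the 10 regions with the most assigned reads, 3 were balanced, and of the 100 with the most, 29 were. The 5 balanced regions with the most reads held 29.2% of the reads of the whole set. S14812_SI, of 1285 bases in D. melanogaster and 98.05% identity, had the second-most assigned reads of all regions and the most per length among the balanced ones, at 36936 per 100 bases.

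S14812_SI gave 198642 D. melanogaster and 221702 D. simulans reads in replicate 1, 251386 and 259744 in replicate 2, and 242765 and 249633 in replicate 3. Its D. melanogaster shares were 47.3%, 49.2% and 49.3%. All 3 lay below 50%, and the exact 95% binomial interval of replicate 1, 47.1% to 47.4%, did not meet those of the other libraries. S14809_SI, of 1265 bases, had a mean of 181682 assigned reads and shares of 49.5%, 49.1% and 49.6%, again all below 50%. The next, S16497_SI, was short (383 bases) and diverged (94.78% identity), with 119252 reads and shares of 49.96%, 51.0% and 50.5%. S54362_SI (537 bases, 92.74% identity, 110916 reads) had 50.7%, 49.2% and 51.1%, with replicate 2 alone below 50%. S53227_SI (426 bases, 97.18% identity, 107215 reads) had 50.9%, 50.6% and 51.2%, all above. At these depths counting error was below the spread between libraries, whose SDs over the 5 regions ran from 0.251 to 1.15 percentage points (n = 3).

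S14809_SI and S14812_SI carry identifiers close to each other, and the regions numbered between them were also abundant. S14810_SI, of 288 bases and also balanced, had 58243, 53318 and 69667 assigned reads and shares of 49.4%, 49.4% and 48.6%. S14811_SI, of 285 bases, had 36451, 36227 and 44964 reads but shares of 44.1%, 44.1% and 46.1%, outside the limits in every library. EdgeR called its log2 ratio, -0.30 ± 0.03 (SE; adjusted p of 7.3e-17). The next numbers on either side, S14808_SI and S14813_SI, had means of 33 and 120 reads. Whether these regions belong to 1 gene is not given in the deposited tables.

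**Figure D2:**
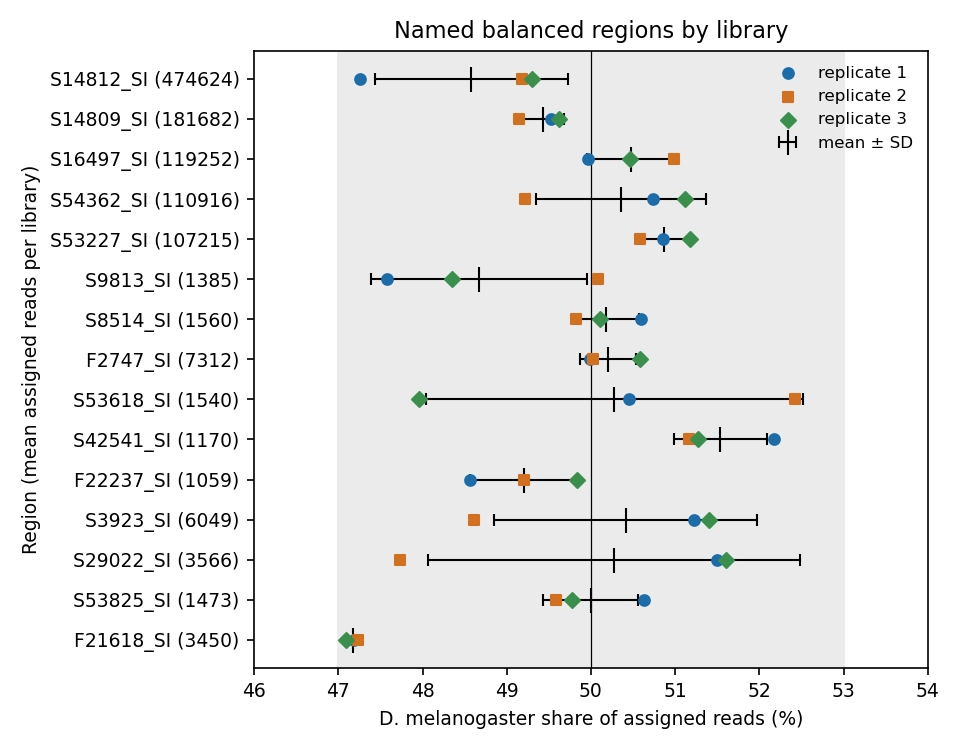
D. melanogaster share of assigned reads (percent) in each of 3 libraries (symbols) for 15 named balanced regions, with the mean and SD over libraries (black) and mean assigned reads in brackets. The shaded band marks 47% to 53%, the limits that chose the regions. F21618_SI stays near 47% in every library, while S53618_SI and S29022_SI spread over several points.

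The other named regions mark the ends of the set. S53825_SI, of 2183 bases, came nearest to 50%, with shares of 50.6%, 49.6% and 49.8% and a mean of 1473 reads. F21618_SI, of 3259 bases in D. melanogaster and 3253 in D. simulans, lay farthest, at 47.2%, 47.2% and 47.1%. The limit of 47% in each library leaves a region with such a mean little room to vary, and its SD of 0.0737 percentage points is given as a description only. The shortest region, S53618_SI, had 85 bases and shares of 50.5%, 52.4% and 47.95%, a wide spread (SD 2.24, n = 3) at 1540 reads. The longest, F2747_SI, had 27708 bases in D. melanogaster and 27689 in D. simulans, with 49.99%, 50.02% and 50.6% of 7643, 6965 and 7328 assigned reads.

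Identity between the species was higher in balanced regions. Its median was 97.07% with quartiles of 96.29% and 97.82%, against 96.64%, 95.55% and 97.52% in the other regions of the same depth. Balanced regions made up 7.02% of the 114 deep regions with at most 93% identity, 17.8% of the 421 with over 95% to 96%, 27.0% of the 729 with over 97% to 98%, and 36.1% of the 72 with over 99%. The 95% Wilson intervals of the lowest and the highest class, 3.599% to 13.2% and 25.98% to 47.6%, did not overlap. They cover counting of regions only, and regions are not replicates, so no test was made. Among regions with 1000 to 2000 reads, where median depth hardly differed between classes, the share was 9.57% at up to 95% identity and 24.2% over 98%.

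High divergence did not preclude balance, as S9813_SI shows, the balanced region of lowest identity (89.28%). This region of 431 bases in D. melanogaster and 429 in D. simulans gave 698 D. melanogaster and 769 D. simulans reads in replicate 1, 605 and 603 in replicate 2, and 716 and 765 in replicate 3. Its shares were thus 47.6%, 50.1% and 48.3%. The deposited percent of positions altered in the D. simulans strain reference was 8.39. S8514_SI, at the other end with 99.74% identity over 1176 bases, had shares of 50.6%, 49.8% and 50.1%. These rested on few of its reads, since 87.9%, 88.9% and 88.4% of them matched both species equally.

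**Figure D3:**
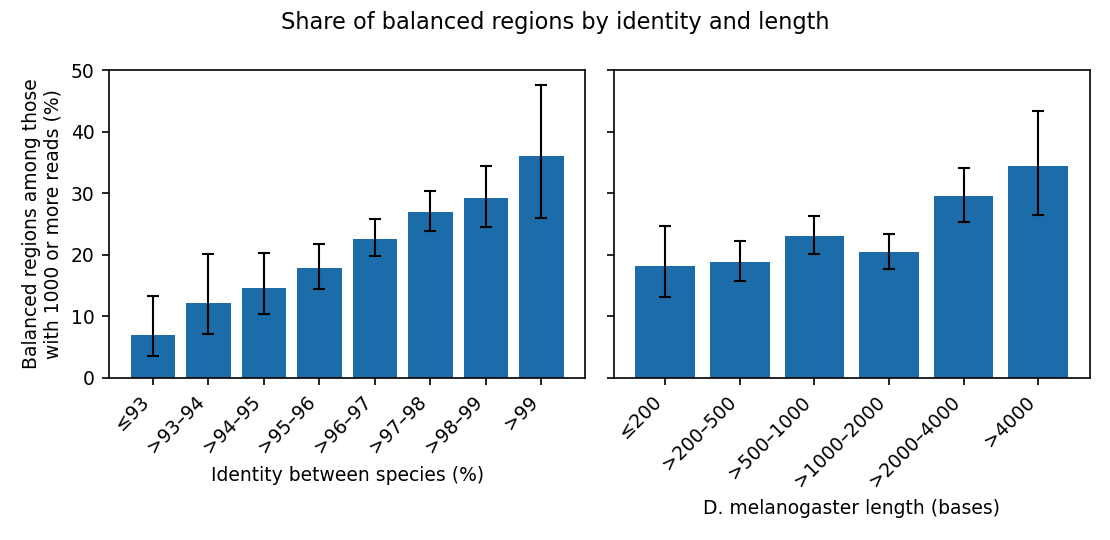
Balanced regions as a percent of the regions with 1000 or more reads, by class of identity (left) and of D. melanogaster length (right); error bars are 95% Wilson intervals over regions. The percent goes from 7.02 to 36.1 with identity, and from 18.2 at up to 200 bases to 34.5 over 4000 bases.

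Balanced regions were also longer. The median D. melanogaster length was 1036 bases, with quartiles of 555 and 2053.5, against 925.5, 468.75 and 1627.25 in the other regions. They made up 18.2% of the 170 deep regions of up to 200 bases, 20.4% of the 760 with over 1000 to 2000 bases, and 34.5% of the 119 with over 4000 bases. Below 2000 bases the share did not go one way with length, at 18.2%, 18.8%, 23.1% and 20.4% in successive classes. Depth per length was close, with a median of 232 assigned reads per 100 bases against 228.

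Structure separated the sets little. Identifiers with F made up 25.4% of the balanced regions (155) and 27.0% of the others (563), and 15.0% of all tested regions. Lengths were equal in both species in 50.6% of the balanced regions and 51.96% of the others. Where they differed, D. melanogaster was the longer in 254 balanced regions and D. simulans in 48, and the difference was a multiple of 3 in 36.1% against 31.0% of the others. The strain references had been altered at a median of 0.92% of positions for D. simulans and 0.16% for D. melanogaster, against 1.14% and 0.18%.

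Membership varied with depth, but not in one direction. The balanced share was 19.8% of the 1474 regions with up to 2000 reads, 23.6% of the 857 with 2000 to 5000, and 33.3% of the 216 with 5000 to 10000. It was 28.6% of the 84 regions with 10000 to 20000 reads and 30.9% of the 68 above 20000. Regions whose mean share lay within 3 points of 50% made up 41.4%, 39.4%, 46.8%, 38.1% and 36.8% of the same classes. Deeper regions have less counting error in each library, and its part in these shares was not tested.

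Reads that matched both species equally, which the rule did not use, were more frequent in balanced regions. The median share of a region's reads was 22.6%, 23.4% and 23.2% in replicates 1, 2 and 3, against 18.7%, 19.3% and 19.2% in the other deep regions. The difference was 4.02 ± 0.0753 percentage points (SD, n = 3) and was positive in each library. An exact two-sided sign-flip permutation test gave p = 0.25, the smallest that 3 libraries allow. Each library holds the same regions, so the SD and the test do not cover the variation between regions. Weighted to the same identity classes, the other regions had medians of 22.1%, 22.9% and 23.1%, which leaves a difference of 0.383 ± 0.220 (SD, n = 3). The share of assigned reads with exact matches differed less, at 63.1%, 31.1% and 58.1% against 62.9%, 30.9% and 57.9%, also with p = 0.25 in the exact test.

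An assigned read was either placed on one genome only, or placed on both and matched one better. The rule fixes only the sum of these kinds, so a region can be balanced because each kind is or because the kinds lean to opposite sides. Reads placed on both genomes made up a median of 67.3%, 72.7% and 67.1% of the assigned reads of balanced regions in replicates 1, 2 and 3, and 62.0%, 68.0% and 62.8% in the other deep regions. Reads placed on both genomes lay within 47% to 53% in every library in 398 balanced regions, and reads placed on one genome only in 181. Each kind on its own met the limits in 126 of the 611 regions. A single kind has fewer reads than the sum, and those placed on one genome only are mostly the fewer. Counting error alone can thus take a kind outside the limits, so missing them does not show that the kinds oppose each other. In reads placed on both genomes the mean D. melanogaster share ran from 42.3% to 60.6%, and in reads placed on one genome only from 31.6% to 83.4%.

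The difference between the kinds was tested as an interaction in edgeR's quasi-likelihood fit over the 20143 regions with a mean of 20 or more reads of each kind. Of the 606 balanced regions that entered, 154 (25.4%) were called at an adjusted p under 0.05, against 14% of all regions tested and 32.8% of the other deep regions that entered. The remaining 5 had too few reads placed on one genome only. The median absolute log2 difference was 0.17 in balanced regions, 0.27 over all regions tested and 0.20 in the other deep regions. D. melanogaster had the lower share among reads placed on both genomes in 98 of the 154 and the higher share in 56. Of the 2821 calls over all 20143 regions tested, it had the lower share in 2022 and the higher in 799. These were 10% and 3.97% of the regions tested. The test asks whether the kinds differ, not whether they lean to opposite sides of 50%. By their means they leaned to opposite sides in 142 of the 154, but the rule holds their sum near 50%. Kinds that differ clearly then fall on opposite sides almost by arithmetic, so nothing is read from this count. Without the block of library and kind, 18 balanced regions (2.97%) were called against 6.71% of all regions tested, so the order of these shares depended on the block. Without replicate 1 it was 95 (15.7%, against 9.97% of all), without replicate 2 it was 130 (21.3%, against 11.1%) and without replicate 3 it was 96 (15.9%, against 10.3%).

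A difference of 2-fold or more between the kinds was called in 9 balanced regions, and S3923_SI had the largest. This region of 304 bases and 98.36% identity had overall shares of 51.2%, 48.6% and 51.4%. Among its reads placed on one genome only, D. melanogaster took 86.1%, 80.1% and 83.9%, and among those placed on both, 46.5%, 46.05% and 46.9%. The kinds did not overlap, and the log2 difference was -2.56 ± 0.11 (SE; adjusted p in edgeR of 1.1e-23). S29022_SI, of 879 bases, was of the same sort, at 78.7%, 76.9% and 77.5% against 48.3%, 44.2% and 48.4%, with an edgeR adjusted p of 3.0e-18 and a log2 difference of -1.97.

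The opposite arrangement was largest in S42541_SI, of 1120 bases in D. melanogaster and 1107 in D. simulans. Its overall shares were 52.2%, 51.2% and 51.3%, with 36.1%, 36.2% and 39.4% among reads placed on one genome only and 62.0%, 59.6% and 60.2% among those placed on both. In log2 the kinds differed by 1.37 ± 0.12 (SE; adjusted p in edgeR of 2.2e-12). F22237_SI, of 2930 bases in D. melanogaster, followed with 38.2%, 34.7% and 38.3% against 58.4%, 59.7% and 59.4%, a log2 difference of 1.29 (edgeR adjusted p of 2.4e-11). Reads placed on both genomes made up 61.1% and 54.6% of the assigned reads of these regions. The longest region, F2747_SI, belonged to the same group, at 46.7%, 45.4% and 47.3% against 56.4%, 57.0% and 56.8% (edgeR adjusted p of 4.5e-08, and 0.12 without the block).

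**Figure D4:**
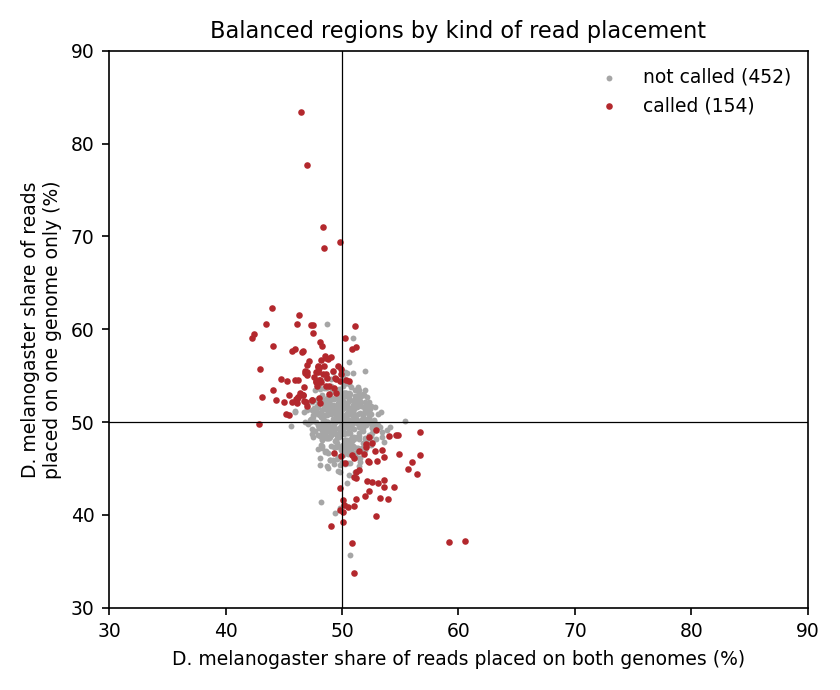
Mean D. melanogaster share over 3 libraries (percent) of reads placed on both genomes (horizontal) and on one genome only (vertical) in the 606 balanced regions tested. Regions called for a difference between the kinds (154, red) lie mainly toward the upper left and the lower right, which the rule largely fixes. S3923_SI is the point at 83.4% on the vertical axis.

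The regions with the most reads differed in this respect. In S14809_SI no difference between the kinds was called, at 49.3%, 50.7% and 49.5% for reads placed on one genome and 49.6%, 48.7% and 49.7% for reads placed on both (edgeR adjusted p of 0.83). In S53227_SI they did, at 39.5%, 39.9% and 40.3% against 52.95%, 52.4% and 53.2%, with an edgeR adjusted p of 3.5e-14. S14812_SI was called with a small log2 difference of 0.16 ± 0.05 (SE; adjusted p in edgeR of 0.042). That p was 0.12 without replicate 1, 0.25 without replicate 3 and 0.89 without the block. In S54362_SI near-equal totals went with match classes that differed strongly. Since the rule holds their sum near 50%, such classes fall on opposite sides of 50% almost by arithmetic. Of its reads with an exact match D. melanogaster took 70.6%, 69.7% and 70.7%, and of its reads with mismatches 32.5%, 43.3% and 36.0%.

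Most balanced regions had match classes much nearer to 50%. Over the 611 regions the mean D. melanogaster share of exact matches had a median of 50.6% and quartiles of 49.1% and 51.6%, and S54362_SI marked its upper end. The share of reads with mismatches had a median of 49.7% and quartiles of 48.4% and 51.1%. Exact matches alone met the limits in every library in 335 of the regions, and reads with mismatches alone in 317. A single class has fewer reads than the sum, so counting error alone can take it outside the limits.

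Allelic imbalance was then described in neighbouring regions. Regions with an identifier number 1 away from a balanced region, and not themselves balanced, numbered 1105, and 840 of these had enough reads to be tested. A region beside both a balanced and an unbalanced deep region was counted with the former. Leaving out balanced regions means that the values of neighbours with 1000 or more reads had a part in the choice, while neighbours with fewer reads were kept whatever their share. Of the 840, 386 (45.95%) were called for allelic imbalance in edgeR, 239 toward D. melanogaster and 147 toward D. simulans. Beside the other deep regions, 1502 of 2723 neighbours (55.2%) were called, and 35.6% of all tested regions were. With TMM scaling the 840 neighbours had 366 calls, 172 toward D. melanogaster and 194 toward D. simulans, so their direction depended on scaling. The difference between the sets of neighbours did not, at 43.6% against 52.5%.

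The neighbours of balanced regions lay nearer to 50% in each library. Their median distance from 50% was 5.04, 5.33 and 4.63 percentage points in replicates 1, 2 and 3, against 6.55, 6.70 and 6.10 beside the other deep regions. The difference was -1.45 ± 0.0719 points (SD, n = 3), with p = 0.25 in an exact two-sided sign-flip permutation test, the smallest possible. All 3 libraries thus showed it, and 3 libraries cannot take such a test below 0.25. The same regions enter in each library, so neither the SD nor the test covers the variation between regions. The neighbours also differed in depth, with a median of 280 against 302 reads, and in identity, with 96.95% against 96.66%. The part of identity was not tested. By depth, 27.4% against 28.9% were called among neighbours with 20 to 100 reads and 39.7% against 51.0% with 100 to 1000. All neighbours with 1000 or more reads lay outside the share limits in at least 1 library by construction, so their call rates are not compared. Without them, in an alternative for the distance chosen after seeing the data, 35.9% of 679 neighbours were called against 44.6% of 2089. Their median distances were 5.25, 5.56 and 4.81 points against 6.67, 6.77 and 6.09, a difference of -1.31 ± 0.104 (SD, n = 3; exact sign-flip permutation p = 0.25).

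**Figure D5:**
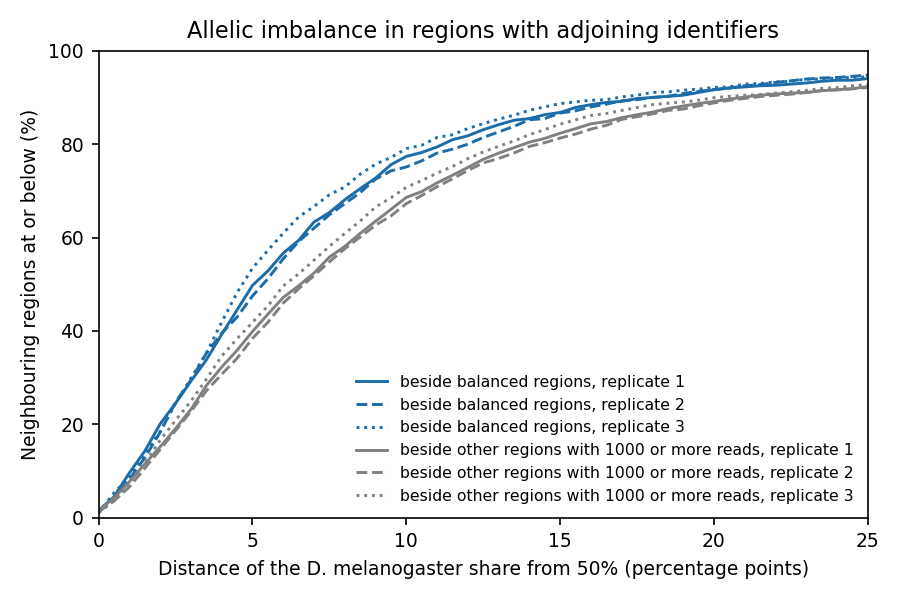
Cumulative percent of neighbouring regions (vertical) by the distance of their D. melanogaster share from 50% in percentage points (horizontal), for 840 neighbours of balanced regions (blue) and 2723 neighbours of other regions with 1000 or more reads (grey), 1 line per library. The blue lines run above the grey lines over most of the range in each library, with medians of 4.63 to 5.33 against 6.10 to 6.70 points.

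Where deep regions adjoined, balanced ones lay beside balanced ones more often, which is a description, since the rule chose by these same shares. Of the 264 times that a balanced region adjoined a region with 1000 or more reads, that region was itself balanced in 96 (36.4%). For the other deep regions it was 168 of 950 (17.7%), and balanced regions were 22.6% of all deep regions. These figures are not independent. The 168 links between a balanced and another deep region enter both, and links between balanced regions are counted from each side. Most balanced regions (386 of 611) had no deep neighbour at all, as had 1293 of the 2088 other deep regions. Consecutive numbers formed 38 pairs and 5 runs of 3, and 520 balanced regions stood alone.

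In the 5 runs of 3 the shares of single libraries lay between 47.2% and 52.5%, at mean depths of 1324 to 19555 reads. One run was S1111_SI, S1112_SI and S1113_SI, of 440, 529 and 1607 bases in D. melanogaster. S1111_SI had shares of 47.8%, 48.2% and 48.2%, S1112_SI 48.9%, 47.9% and 48.9%, and S1113_SI 48.7%, 47.9% and 47.9%, so that all leaned to D. simulans in every library. The regions at the ends of this run leaned in opposite directions. S1110_SI (79 bases, 91.14% identity, a mean of 55.3 reads) had shares of 29.0%, 27.8% and 26.5%. F1114_SI, with 5539 reads, had 54.8%, 54.0% and 50.3%. Of the 10 regions that flanked the 5 runs, 7 had enough reads, and 3 of these were called in edgeR, beside 35.6% of all tested regions. The calls were 1 toward D. melanogaster (F1114_SI) and 2 toward D. simulans (S1110_SI and S3212_SI, the latter at an edgeR adjusted p of 0.049). No flank of the remaining runs was called.

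Some neighbours were fully one-sided. S8513_SI, of 79 bases and 98.73% identity, adjoins S8514_SI, the balanced region of highest identity. It had 435, 520 and 503 D. melanogaster reads in replicates 1, 2 and 3 and no D. simulans read. The ratio of read numbers was at least 486 against a floor of 3 counts over the libraries. None of its reads was placed on both genomes, and none was unassigned. S218_SI, of 101 bases and beside the balanced F217_SI, had 339, 248 and 377 D. melanogaster reads and no D. simulans read. Its ratio was at least 321 by the same floor, again with no read placed on both genomes or unassigned. In neither region was any read placed on the D. simulans reference. Unequal expression and the placement of reads therefore cannot be told apart here, and neither was tested. No D. simulans read was found in 10 of the 840 tested neighbours, and no D. melanogaster read in 1. Beside the other deep regions these counts were 21 and 2 of 2723.

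Among neighbours with 100 or more reads in every library, the largest called ratio toward D. simulans was that of S30091_SI, of 413 bases and 92.25% identity, beside F30090_SI. It had 27, 35 and 37 D. melanogaster against 203, 210 and 193 D. simulans reads, or shares of 11.7%, 14.3% and 16.1%, and its log2 ratio was -2.61 ± 0.16 (SE). F30090_SI itself had 51.6%, 49.3% and 48.3%. S56837_SI, of 168 bases, had 22.9%, 28.3% and 20.8% beside S56838_SI at 49.5%, 51.1% and 50.8%, with a log2 ratio of -1.66 ± 0.10 (SE). Reads placed on both genomes leaned the same way in both regions. In S30091_SI they numbered 13, 20 and 17 from D. melanogaster against 104, 102 and 94 from D. simulans. Balance in an abundant region therefore did not extend to every adjoining number.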

How the data were processed

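Per the labels, the 3 libraries are RNA from hybrid heads. The authors deposited raw counts of reads per exonic region in 10 classes (per the file headers), 4 for each allele and 2 for reads that match both species equally. Per the submitters' processing notes, Bowtie was used. For its version, the genome build and the annotation, the entry is "not given in the sources used here". Deposited alongside are the percent identity, the percent of altered positions, region lengths and a coverage signal whose origin is not stated; these are identical in the 3 tables. The percents of altered positions are printed as deposited, since how they were computed is not stated. Both alleles come from the same RNA pool, so replicate was a block.

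Counts were summed per allele and tested with edgeR 4.0.16 (R 4.3.3) in 6 columns, without scaling between alleles, where the mean was 20 or more, and for the kinds of placement in 12 columns. P-values were adjusted by Benjamini-Hochberg over all tested regions. DESeq2 1.42.0 was an alternative. Procedures were tested on simulated counts with independent columns, a fixed dispersion and no allelic ratio that varied between libraries. The effect of such variation on the calls was therefore not examined. Standard errors are the log2 ratio over the square root of F. P-values of the allele test rest on the spread between 3 independent pools, with the dispersion estimated jointly over all tested regions. They and the standard errors therefore do not measure a region's own spread. S29022_SI and F21618_SI, with SDs of 2.21 and 0.0737 percentage points at similar depth, had standard errors of 0.0502 and 0.0505. The test of kinds had no term for the allelic ratio of each library, so the pairing of kinds within a pool was not modelled. Sign-flip p-values of 3 like signs are 0.25 whatever the spread. Intervals cover counting error only, as reads had no molecular identifiers. The members and lists were chosen with earlier results of these data known. The rule for named regions took the 5 with most reads, the extremes of identity, length and distance from 50%, the 2 largest called differences between kinds in each direction, the longest runs, and the 2 largest called neighbours in each direction with 100 or more reads in every library; S14808_SI, S14810_SI, S14811_SI and S14813_SI were named after their values were seen. No gene list could be used. DNA control libraries were not used here.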

Additional observations from a re-analysis of the deposited data

How the results depend on the processing

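The number of balanced regions followed its limits: 298 at 48% to 52%, 1261 at 45% to 55%, 970 with a mean of 500 reads, 319 with a mean of 2000, 262 from exact matches alone and 423 from reads placed on both genomes. Without 1 replicate it was 712 to 793. Limits of the same width centred on the median tested region, chosen after seeing the data, gave 633, of which 348 were among the 611. Of all tested regions, 11851 were called, 5927 with DESeq2 and 9150 to 9371 without 1 replicate. Without the replicate block 8024 were called, and of the 611 balanced regions 0, with 36 under the block. DESeq2 called 4 of the 611, TMM scaling 147, and fits without 1 replicate 11 to 20. The share of neighbours called fell from 45.95% to 23.9% without the block and 24.8% with DESeq2, against 37.6% and 36.5% beside the other deep regions, and was 35.1% to 36.3% without 1 replicate. Differences between the kinds were called in 154 regions, 18 without the block (2.97%, below the 6.71% of all regions tested) and 95 to 130 without 1 replicate. The log2 difference of S14809_SI, -0.03, ranged from -0.053 to 0.012 without 1 replicate and reversed without replicate 2 (0.012); it was not called in any of these fits. The causes were not tested. The lower distance of neighbours from 50% kept its direction in all alternatives run, from -1.08 to -2.11 points, as did the higher unassigned share, from 0.383 to 6.11 points.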

Other observations

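The deposited tables also give a coverage signal per region and genotype, from a source they do not name and identical for the 3 libraries. In the median balanced region the D. simulans signal was the higher, by 0.58 on the log2 scale. The median was 0.54 in the other deep regions and 0.71 over the tested regions. The D. simulans signal was the higher in 90.8% of the 611 regions, 82.5% of the other deep regions and 88.5% of the tested regions with both signals. A higher D. simulans signal was thus not particular to balanced regions. In 5 balanced regions, all among the 10 with the most reads, the D. melanogaster signal was over 16 times the D. simulans one. The same held for 13 of the 2088 other deep regions, and S14811_SI, which was not balanced, had 785.01 and 0.95. S14812_SI had 2842.1 for D. melanogaster and 2.68 for D. simulans, S14809_SI 1011.01 and 2.1, S16497_SI 1280.09 and 3.47, S54362_SI 137.97 and 0.27, and S14810_SI 639.22 and 3.6. The hybrid libraries held 49.2% to 50.5% D. melanogaster reads in 4 of these and 48.6% in S14812_SI. In these 5 regions the near-equal read numbers were thus not matched by the signal, and nothing is read from them about other regions. The highest log2 ratio of the signals among the remaining balanced regions was 1.34, in S32980_SI. These regions were singled out after their values were seen.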
